A study of Mus musculus with 6 samples.

Results

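The 5 loci followed here, through H3K27me3 maps of mouse male germ cells, belong to the pluripotency network: Sox2, Nanog, Pou5f1, Klf4 and Sall4. Each locus was represented by a fixed interval of the mm9 build, and every call that overlapped it was taken, whatever its size. The intervals were chr3:34535000-34570000 (Sox2), chr6:122645000-122675000 (Nanog), chr17:35630000-35660000 (Pou5f1), chr4:55530000-55560000 (Klf4) and chr2:168560000-168605000 (Sall4). They were 35, 30, 30, 30 and 45 kb long. The rule that places them uses no measured value. They held between 10 and 12 of the 31863 to 42363 MACS2 peaks of a library, and between 9 and 13 of its 22015 to 27365 joined hiddenDomains bins. MACS2 and hiddenDomains are peak callers, the latter a hidden Markov model intended for broad marks. No mm9 gene annotation was used, so the position of a call is given within its interval and not relative to a start site. An interval can also hold sequence of a neighbouring gene. The protein-coding genes next to each member are Dnajc19 and Atp11b (Sox2), Dppa3 and Slc2a3 (Nanog), H2-Q10 and Tcf19 (Pou5f1), Rad23b and Actl7b (Klf4), and Atp9a and Zfp64 (Sall4). Which of them reach into an interval was not determined.

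H3K27me3, trimethylated lysine 27 of histone H3, was mapped by chromatin immunoprecipitation and sequencing in testis cells of 6-week-old mice of mixed background. Control animals were MvhCre;Ezh2fl/+ (2 libraries) and mutants were MvhCre;Ezh2fl/fl (2 libraries), so both genotypes carried the Cre transgene and at least 1 floxed allele. The Cre is driven by Mvh, a germ cell gene, so the deletion is aimed at germ cells, and the labels put the share of spermatogenic cells after Percoll and straining at 90%. Spermatogenic stages were not separated from each other. Whether the 2 libraries of a genotype stem from different mice is not said, and 2 input samples were not used here.

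Trimethylation of H3K27 is catalysed by Polycomb repressive complex 2 (PRC2), which contains either EZH2 or EZH1 as its enzyme, and is found at silent developmental genes, most often where the DNA is rich in CG dinucleotides. SOX2, NANOG and POU5F1 (OCT4) are the transcription factors at the centre of the pluripotency network of the early embryo and of embryonic stem cells. KLF4 and SALL4 are zinc finger factors that act with them. In the testis Sall4 is known as a gene of undifferentiated spermatogonia and Klf4 as a gene expressed in spermatids, so not every gene of the set is silent in all germ cells. The maps hold no expression values, and silencing of the 5 genes could not be checked in them.

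Since PRC2 targets are typically rich in CG, the sequences in front of the genes are shown first, for comparison with the extent of the mark. RefSeq promoters (GRCm38.p6, a build other than that of the calls) matched 4 of the 5 genes, all but Sall4. The 250 bases upstream of the most 5′ listed start are printed 5′ to 3′ on the strand of the gene, with each CG dinucleotide in capitals. They lie at chr3:34649745-34649994 (plus strand, Sox2), chr6:122707239-122707488 (plus, Nanog), chr17:35505782-35506031 (plus, Pou5f1) and chr4:55532476-55532725 (minus, Klf4).
Sox2: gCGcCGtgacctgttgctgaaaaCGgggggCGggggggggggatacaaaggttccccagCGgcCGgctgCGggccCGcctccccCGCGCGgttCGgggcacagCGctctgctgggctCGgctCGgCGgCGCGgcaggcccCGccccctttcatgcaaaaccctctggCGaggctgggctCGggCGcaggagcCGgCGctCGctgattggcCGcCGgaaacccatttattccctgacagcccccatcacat
Klf4: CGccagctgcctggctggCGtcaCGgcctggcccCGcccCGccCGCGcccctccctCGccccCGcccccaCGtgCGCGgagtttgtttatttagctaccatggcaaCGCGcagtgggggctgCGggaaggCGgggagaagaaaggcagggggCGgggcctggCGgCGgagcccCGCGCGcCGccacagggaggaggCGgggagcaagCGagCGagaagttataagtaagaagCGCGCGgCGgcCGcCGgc
Pou5f1: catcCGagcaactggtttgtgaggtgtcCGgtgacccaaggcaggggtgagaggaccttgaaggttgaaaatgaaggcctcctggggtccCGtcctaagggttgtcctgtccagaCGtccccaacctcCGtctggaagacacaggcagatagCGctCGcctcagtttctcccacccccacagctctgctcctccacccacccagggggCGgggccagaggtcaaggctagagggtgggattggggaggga
Nanog: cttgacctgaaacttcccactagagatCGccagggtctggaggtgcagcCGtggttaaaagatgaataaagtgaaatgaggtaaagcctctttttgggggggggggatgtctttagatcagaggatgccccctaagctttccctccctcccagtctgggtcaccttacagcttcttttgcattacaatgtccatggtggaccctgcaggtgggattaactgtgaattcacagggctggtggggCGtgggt
The Klf4 sequence holds 32 CG dinucleotides, the Sox2 sequence 27, the Pou5f1 sequence 8 and the Nanog sequence 3. CG reads the same on both strands. Over 32851 promoter sequences of this length the median was 6, and 92.1% held at least 1 CG. More CG dinucleotides than in 95.4% of these promoters were found in Klf4, more than in 91.4% in Sox2, more than in 57.0% in Pou5f1 and more than in 29.0% in Nanog. Further starts listed for Nanog and Pou5f1 had 2 and 6 CG dinucleotides.

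All 5 intervals were marked in both genotypes, but to very different extents. MACS2 placed at least 1 peak in each interval in each of the 4 libraries. Of all 30-kb tiles of the genome and the 5 intervals, 19.5% had a MACS2 peak in all 4 libraries and 15.6% had a hiddenDomains bin in all 4. With hiddenDomains the single exception was Klf4 in mutant 1, where no bin was called. Sox2 was covered almost end to end, at 92.8% of its interval on average over the 4 libraries with MACS2, more than 99.98% of the 30-kb tiles. Sall4 followed with 25.3%, Nanog with 16.2%, Pou5f1 with 6.62% and Klf4 with 4.97%. With hiddenDomains the order was the same, at 86.1%, 18.2%, 14.0%, 5.67% and 2.83%. Sox2 lay above all other genes in every library. The libraries of Sall4 and Nanog overlapped with both callers, with Sall4 between 20.3 and 30.7% and Nanog between 11.5 and 20.8% with MACS2. Every library of Nanog lay above every library of Pou5f1, and Pou5f1 and Klf4 overlapped with both callers. Among the 4 genes with a promoter sequence, which leaves out Sall4, the order of coverage was not that of CG content. Klf4 had the most CG dinucleotides upstream of its start and the least coverage, whereas Nanog had the fewest and ranked above Pou5f1. The measures are unlike, as CG was counted in short upstream sequences of another build and coverage over whole intervals. No call was placed relative to a start, so whether CG content bears on the mark was not tested. Over tiles with a mean of at least 1 kb called, the median covered share was 9.57% with MACS2 and 9.17% with hiddenDomains. Pou5f1 and Klf4 lay below these medians and the other genes above them, but Klf4 itself did not reach a mean of 1 kb with hiddenDomains. Set against all 30-kb tiles, Pou5f1 had a larger covered share than 86.8% with MACS2 and 88.6% with hiddenDomains. For Klf4 these ranks were 84.1 and 84.3%.

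**Figure D1:**
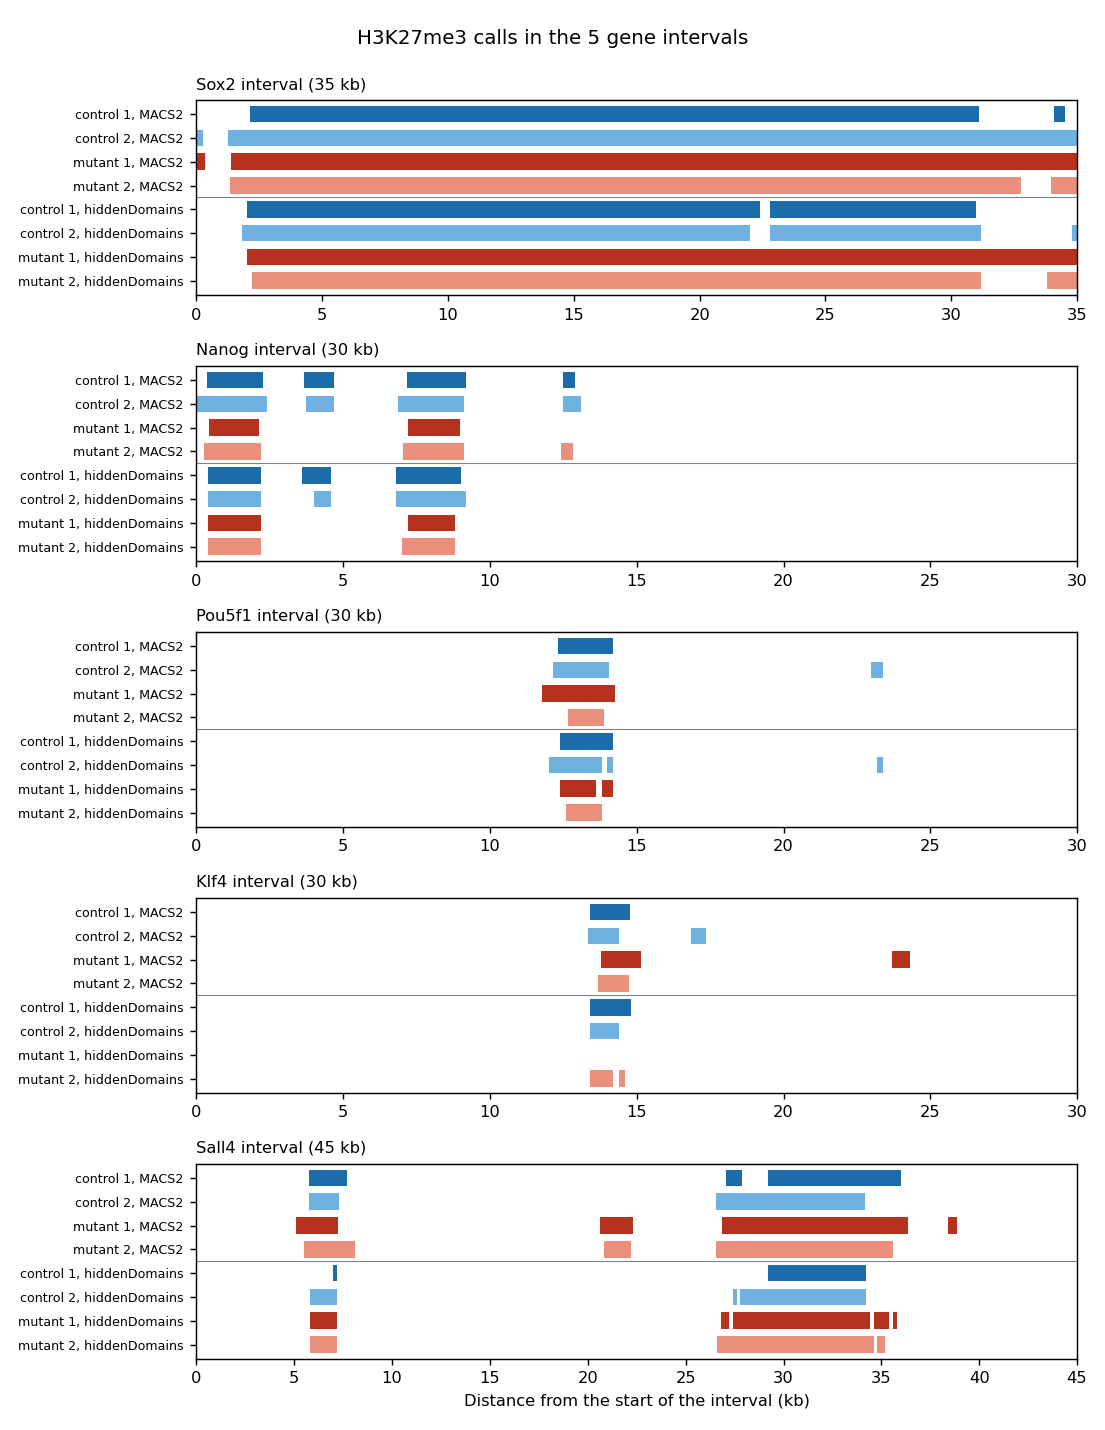
Calls of H3K27me3 in the 5 intervals. Each row is 1 library and caller, the x axis gives the distance from the start of the interval in kb, and bars are called stretches cut at the ends of the interval; Sox2 is filled by a broad domain in every library, with a short gap in the control bins, whereas the calls at Pou5f1 and Klf4 are short, with no bin at Klf4 in mutant 1, and a Nanog call near 4 kb is present in the controls but in neither mutant.

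Sox2, an HMG-box factor that is also required in neural progenitors, lay in a domain that MACS2 called over 29.4 and 34.0 kb of the interval in controls 1 and 2, and over 34.0 and 32.5 kb in mutants 1 and 2. The genotypes overlapped, with control 1 the lowest library and control 2 and mutant 1 the highest. The means were 31.7 ± 3.24 kb in controls and 33.2 ± 1.06 kb in mutants (SD, n = 2 each), a difference of 1.52 kb that was smaller than the spread between the controls (exact permutation p = 1, two-sided) and became -0.772 kb without control 1 and -0.174 kb with library totals scaled to be equal. Bins called by hiddenDomains covered 28.6 and 28.8 kb in the controls against 33.0 and 30.2 kb in the mutants. Both mutants were thus above both controls with this caller (difference 2.90 kb, exact permutation p = 0.333, the smallest that 2 libraries against 2 can give). That difference was 1.5 kb without mutant 1 and 6.57 kb with equal totals. Scaling to equal totals takes no account of the interval length. As Sox2 nearly fills its interval, scaled lengths there can exceed it, and both scaled differences are to be read with this limit.

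The differences at Sox2 lay at the edges of the domain and in 1 internal gap. With 5 kb trimmed from both ends, MACS2 covered all 25 kb that remained in every library. The bins there covered 24.6 and 24.2 kb in controls 1 and 2 and 25 kb in each mutant. Both controls lacked bins over 400 bp at chr3:34557401-34557800, inside the domain, where both mutants had them. The other stretch of bins specific to the mutants, 1000 bp at chr3:34568801-34569800, lay at the right end. There MACS2 called peaks in all 4 libraries, although the peak of control 1 was only 0.442 kb wide. The main Sox2 peak ended at 34566088 in control 1 and at 34567784 in mutant 2, and it ran past the end of the interval in control 2 and mutant 1.

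Sall4, a zinc finger factor of embryonic and spermatogonial stem cells, was the member with more called sequence in both mutants than in both controls under both callers. Controls 1 and 2 had 9.56 and 9.12 kb of MACS2 peaks, and mutants 1 and 2 had 13.8 and 13.0 kb. The groups did not overlap, with means of 9.34 ± 0.312 and 13.4 ± 0.559 kb (SD, n = 2 each) and a difference of 4.08 kb (exact permutation p = 0.333, the smallest possible). Bins measured 5.2 and 8.0 kb in controls 1 and 2 against 9.8 kb in each mutant, a difference of 3.20 kb (exact permutation p = 0.333). Without control 1, the lower control, the difference in bins was 1.8 kb.

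The additional sequence at Sall4 lay in 3 places and in a peak of 0.466 kb that mutant 1 alone had. The largest call, at chr2:168586541-168596377 over all libraries, held 7.602 and 7.606 kb of peaks in controls 1 and 2 against 9.53 and 9.07 kb in mutants 1 and 2. In control 1 it was split into peaks of 0.821 and 6.78 kb, whereas each other library had 1 unbroken peak. Bins in the same stretch covered 5.0 and 6.6 kb in the controls against 8.4 kb in both mutants, and the bins called in both mutants and no control lay towards its ends. A second call, at chr2:168580629-168582322, was present in the mutants (1.69 and 1.35 kb) and in neither control, and hiddenDomains placed no bin there in any library. The third place was the left call at chr2:168565100-168568089, where controls 1 and 2 had 1.96 and 1.52 kb and mutants 1 and 2 had 2.13 and 2.61 kb. In bins it measured 0.2 kb in control 1 and 1.4 kb in each of the others.

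Nanog, a homeodomain factor of the naive pluripotent state, was the member with less called sequence in both mutants under both callers. Controls 1 and 2 had 5.35 and 6.25 kb of MACS2 peaks and mutants 1 and 2 had 3.46 and 4.42 kb, without overlap. The means were 5.80 ± 0.634 and 3.94 ± 0.685 kb (SD, n = 2 each), a difference of -1.86 kb (exact permutation p = 0.333, the smallest possible). In bins, controls 1 and 2 measured 5.0 and 4.8 kb and mutants 1 and 2 measured 3.4 and 3.6 kb. The difference in bins was -1.40 kb (exact permutation p = 0.333), and -0.879 kb with equal library totals.

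The Nanog interval held 4 separate places of H3K27me3, all in its left 13.1 kb, and the remaining part was without a call in every library. The leftmost and the third, at chr6:122644671-122647390 and chr6:122651852-122654190, were called in all 4 libraries by both callers. At the leftmost, bins covered 1.8 kb in every library. The second, at chr6:122648663-122649699, was called over 1.03 and 0.981 kb in the controls and not in the mutants. Bins gave the same pattern there, with 0.938 and 0.6 kb inside the MACS2 region in the controls and none in the mutants. The fourth, at chr6:122657404-122658108, was a short peak of 0.396 and 0.619 kb in the controls and 0.42 kb in mutant 2, absent in mutant 1, and had no bin in any library. The third place was narrower in the mutants in bins, at 1.6 and 1.8 kb against 2.2 and 2.4 kb in controls 1 and 2. The separation of the genotypes in MACS2 peaks rested on the left end of the interval. With 5 kb trimmed from both ends, which removes the leftmost and the second place, peaks covered 2.42 and 2.88 kb in controls 1 and 2, and 1.77 and 2.49 kb in mutants 1 and 2. The groups then overlapped in peaks (difference -0.519 kb, exact permutation p = 0.667). In bins the trimmed interval still held 2.2 and 2.4 kb in controls 1 and 2 against 1.6 and 1.8 kb in mutants 1 and 2. The groups did not overlap there (difference -0.6 kb, exact permutation p = 0.333, the smallest possible).

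Pou5f1, which encodes the POU factor OCT4, had 1 short call shared by all libraries, at chr17:35641781-35644272. MACS2 peaks there were 1.88 and 1.93 kb long in controls 1 and 2, and 2.49 and 1.23 kb in mutants 1 and 2, so that the mutants lay on either side of the controls. A further peak of 0.412 kb at chr17:35652989-35653400 was called in control 2 alone. Over the interval the means were 2.11 ± 0.328 kb in controls and 1.86 ± 0.894 kb in mutants (SD, n = 2 each), and the difference of -0.251 kb did not exceed the SD of the mutants (p = 1 by two-sided exact permutation). It turned to 0.381 kb without mutant 2. Bins measured 1.8 and 2.2 kb in controls 1 and 2 and 1.6 and 1.2 kb in mutants 1 and 2, with both mutants below both controls (difference -0.6 kb, exact permutation p = 0.333).

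Klf4, a Krüppel-like zinc finger factor, was the least covered member. Its 1 shared MACS2 region, at chr4:55543333-55545148, held peaks of 1.36 and 1.06 kb in controls 1 and 2 and of 1.36 and 1.05 kb in mutants 1 and 2. Of that region 0.601 kb was called in all 4 libraries. Peaks of 0.502 kb in control 2 and 0.629 kb in mutant 1 lay elsewhere in the interval, each in a single library. Over the interval the means were 1.46 ± 0.139 and 1.52 ± 0.660 kb (SD, n = 2 each; exact permutation p = 1, two-sided), and the difference of 0.0580 kb became -0.0709 kb with equal totals. Bins covered 1.4 and 1.0 kb in the controls, 0 kb in mutant 1 and 1.0 kb in mutant 2. The nearest bin to the interval in mutant 1 lay 2 kb beyond its left end. At this locus the callers thus differed in mutant 1, where MACS2 gave a peak of 1.36 kb in the shared region.

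**Figure D2:**
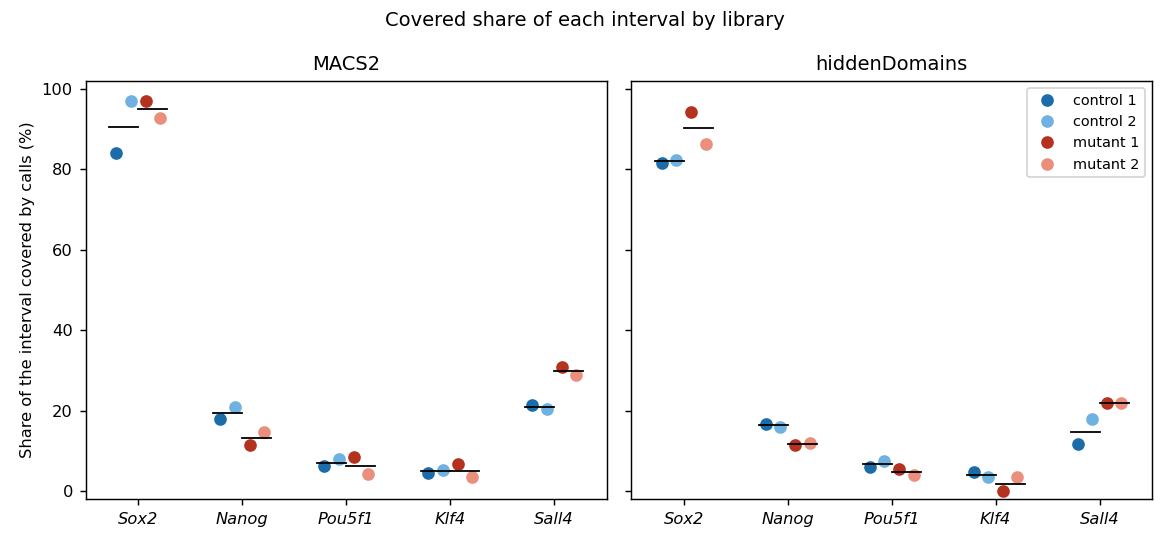
Share of each interval covered by calls, in percent of its length, for MACS2 (left) and hiddenDomains (right). Points are the 4 libraries and black lines the mean of the 2 libraries of a genotype; the mutants lie below the controls at Nanog and above them at Sall4 in both panels, and the groups overlap at Klf4 in both.

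Read across the 5 genes, the mutants were higher than both controls in 1 interval, lower in 1 and overlapping in 3 with MACS2. Of the 16885 tiles and intervals with a mean of at least 1 kb, 22.2% were higher and 33.2% lower in this sense. With hiddenDomains 2 intervals were higher (Sox2 and Sall4), 2 lower (Nanog and Pou5f1) and 1 overlapping (Klf4), against 8.49% higher and 42.3% lower of 13083. Groups of 2 libraries that do not overlap are therefore common in these maps, and lower mutants more so than higher ones.

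The intervals were next tested together with all 30-kb tiles in 1 limma fit for each caller, on log2(kb covered + 1). No tile or interval passed a Benjamini-Hochberg adjusted p of 0.05 with either caller (0% called in both). At an unadjusted limma p under 0.05 there were 3291 of 13083 features with hiddenDomains, 2.94% higher and 22.2% lower, and 3333 of 16885 with MACS2, 9.55% higher and 10.2% lower. For Sall4 the mutants exceeded the controls by 0.48 on the log2 scale (SE 0.07, limma adjusted p = 0.14) with MACS2 and by 0.53 (SE 0.23, limma adjusted p = 0.266) with hiddenDomains, and its unadjusted p was under 0.05 with MACS2 alone. Its difference was higher than that of 83.6% of features with MACS2 and of 96.6% with hiddenDomains. For Nanog the mutant minus control difference on the log2 scale was -0.47 (SE 0.15, limma adjusted p = 0.235) with MACS2 and -0.39 (SE 0.04, limma adjusted p = 0.0814) with hiddenDomains, and its unadjusted p was under 0.05 with both. Lower than Nanog were 11.4% of features with MACS2 and 19.0% with hiddenDomains. The median over all features was -0.04 with MACS2 and -0.12 with hiddenDomains. Sox2 differed by 0.07 (SE 0.08) with MACS2 and 0.13 (SE 0.05) with hiddenDomains, and Pou5f1 by -0.15 (SE 0.27) and -0.32 (SE 0.13). Their limma adjusted p lay between 0.248 and 0.792. The Klf4 interval differed by 0.01 (SE 0.24, limma adjusted p = 0.986) with MACS2 and had too few bins to enter the fit, with a mean below 1 kb.

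**Figure D3:**
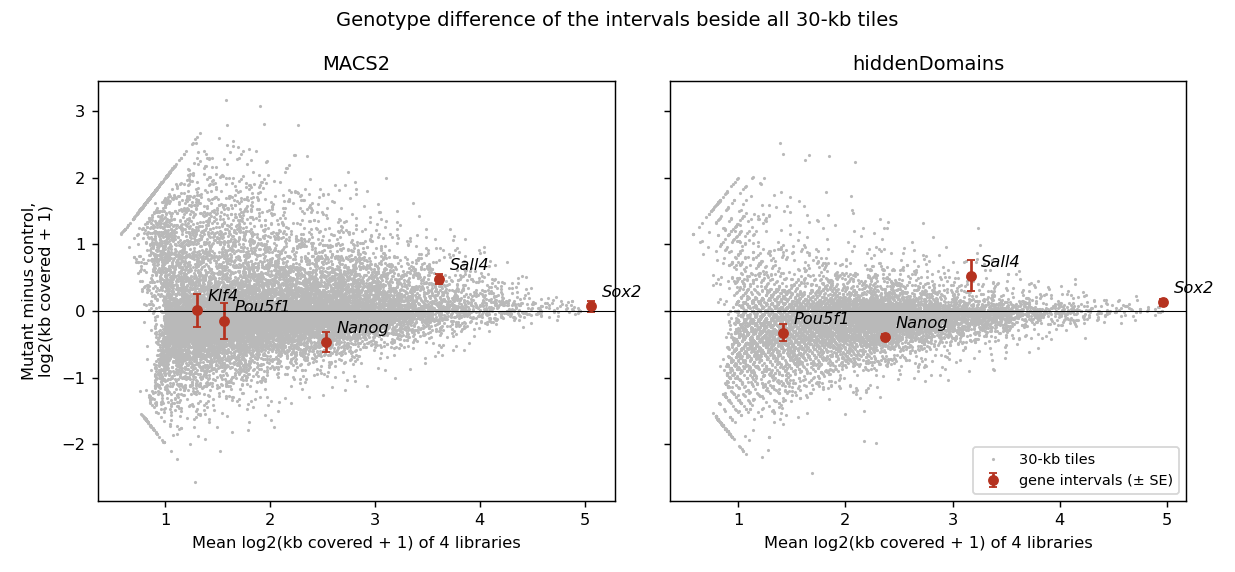
Mutant minus control difference of log2(kb covered + 1) against the mean over the 4 libraries, for all 30-kb tiles (grey) and the intervals (red, bars are the SE of the limma fit). Sall4 lies above 0 and Nanog below 0 with both callers, both inside the cloud of tiles, and Sox2 lies at the right end among the most covered tiles, though the Sox2 and Sall4 intervals are longer than a tile; Klf4 did not enter the hiddenDomains fit.

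Counted as separate regions, the union of the MACS2 lists gave 15 regions in the 5 intervals. Regions were taken at full length, also where they reached beyond an interval. Of these 8 (53.3%) were called in all 4 libraries, against 36.4% of all 54748 regions of the genome. Among the 8 was a region at the left edge of Sox2, chr3:34531714-34535355, that lay mostly outside the interval. Only its calls in control 2 and mutant 1 reached into the interval. Those of control 1 and mutant 2 ended 0.59 and 0.743 kb before it. One region (6.67%) was called in both controls and no mutant, the second Nanog place, against 4.9% of all regions. One (6.67%) was called in both mutants and no control, the second Sall4 call, against 5.97%. The other 5 (33.3%) were called in 1 or 3 libraries, and regions of neither kind made up 52.7% of the genome's. Of all control-only MACS2 regions 33.9% had bins in both controls and no mutant, as the Nanog region did. Of all mutant-only MACS2 regions 6.52% had bins in both mutants and no control, which the Sall4 region did not. Joined bins gave 10 regions, of which 6 (60%) were called in all libraries, against 43.4% of 36868, and 1 (10%) was control-only, against 7.53%. None was mutant-only, against 2.8%, and the other 3 (30%) compare with 46.2%.

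Base by base, the part of each locus that every library called separated the 5 genes. At Sox2 86.3% of the bases called by MACS2 in any library were called in all 4, against 53.4% at Nanog, 48.3% at Sall4, 42.3% at Pou5f1 and 20.4% at Klf4. Over the genome, where calls were not cut at interval ends, this share was 40.2%. At Sox2 the cutting removed outer ends of the calls that differed between libraries. With hiddenDomains the shares were 84.3% at Sox2, 65.4% at Nanog, 50% at Sall4, 41.7% at Pou5f1 and 0% at Klf4, and 54.0% over the genome. The 0% at Klf4 follows from mutant 1, which had no bin there. At Sox2 every base that MACS2 called in both controls, 29.4 kb, was called in both mutants. At Sall4 that held for 99.5% of 7.27 kb, at Pou5f1 for 70.1% of 1.75 kb, at Nanog for 66.2% of 5.22 kb and at Klf4 for 61.5% of 0.978 kb, against 78.4% over the genome.

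No gene had bases specific to the controls together with bases specific to the mutants. At Nanog 17.4% of the MACS2 bases and 19.2% of the bins were called in both controls and no mutant, and none in the reverse direction. Klf4 had 9.03% and 14.3% of this kind, which came to 0.266 and 0.2 kb. At Sall4 10.8% of the MACS2 bases and 11.5% of the bins were called in both mutants and no control, and none in the reverse direction. Sox2 had 4.22% of this kind in bins and none in peaks, and Pou5f1 had neither kind with either caller. Over the genome 5.18% of MACS2 bases were specific to the controls and 4.94% to the mutants, and with hiddenDomains 8.5% and 2.24%.

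**Figure D4:**
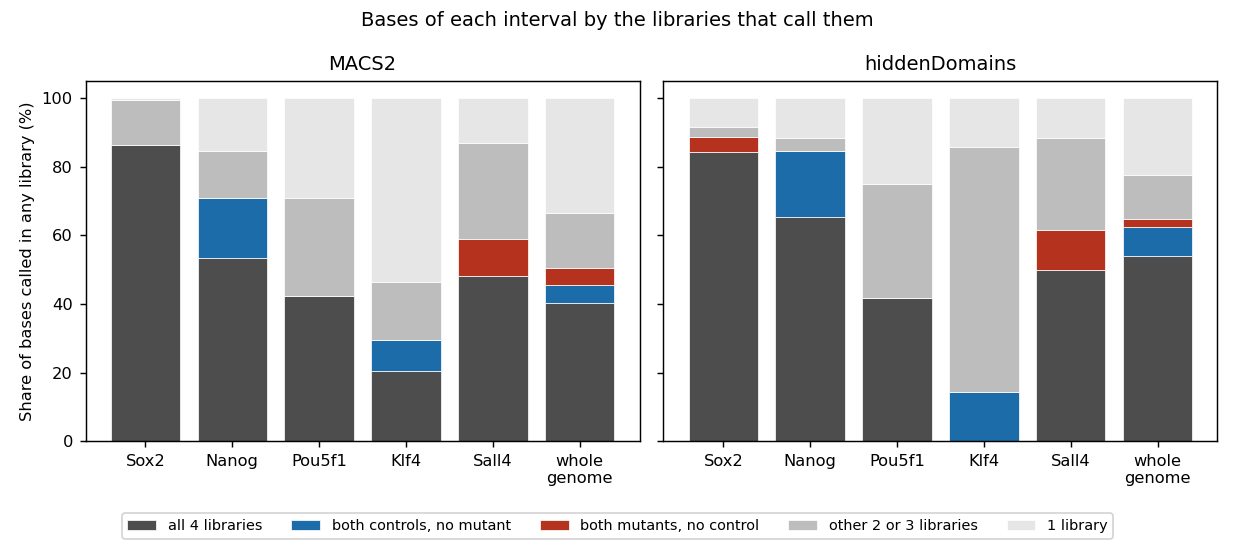
Bases called in at least 1 library, split by the libraries that call them, as percent of each locus and of the whole genome, for MACS2 (left) and hiddenDomains (right). The share called in all 4 libraries (dark grey) is highest at Sox2 and lowest at Klf4; bases of both controls and no mutant (blue) stand out at Nanog and bases of both mutants and no control (red) at Sall4.

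Libraries of a genotype were compared with the Jaccard index, the bases called in both libraries over those called in either. At Sox2 the MACS2 index was 0.865 for the controls, 0.954 for the mutants and 0.866 to 0.994 for pairs of a control and a mutant, so that with this caller the 2 controls were less alike than any such pair. With bins the controls gave 0.966, the mutants 0.915 and pairs of a control and a mutant 0.861 to 0.934, so that the 2 controls were more alike than any such pair. At Nanog it was 0.818 between controls and 0.781 between mutants, both above the 0.553 to 0.719 between genotypes. With bins Nanog gave 0.885, 0.944 and 0.68 to 0.75. At Sall4 the controls (0.637) were no more alike than a control and a mutant (0.622 to 0.7), and the mutants had 0.792. At Pou5f1 and Klf4 the values within genotypes, 0.709 and 0.493 and 0.502 and 0.449, lay below the highest value between genotypes, 0.754 and 0.773. These indices are descriptions of single loci and carry no test.

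Where both callers gave calls, most bins lay in a MACS2 peak of the same library. This held for 99.5 to 100% of the bins at Sox2 and Sall4, 91.5 to 99.0% at Nanog and 87.8 to 100% at Pou5f1. At Klf4 it held for 97.4 and 99.1% in controls 1 and 2 and for 72.1% in mutant 2, and mutant 1 had no bin. The share of MACS2 bases that held a bin was 84.7 to 97.1% at Sox2, 74.6 to 94.7% at Nanog, 64.2 to 95.7% at Pou5f1, 54.2 to 87.3% at Sall4 and 0 to 100% at Klf4.

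Counting only bases called by both callers, a choice made after seeing the data, left the 2 genotypes without overlap at all 5 genes. The mutants were higher at Sall4 (difference 3.21 kb) and Sox2 (2.87 kb). They were lower at Nanog (-1.20 kb), Pou5f1 (-0.497 kb) and Klf4 (-0.817 kb), and Klf4 had a mean below 1 kb. Each exact permutation p was 0.333, the smallest possible. Of the 12583 tiles and intervals with a mean of at least 1 kb of such bases, 10.7% were higher and 48.5% lower in this sense.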

How the data were processed

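The 4 ChIP libraries were grouped by their titles. The authors deposited for each library a MACS2 peak list (start and end only, per the file headers) and a list of 200-bp hiddenDomains bins with a display score, highest value 1000, of unstated meaning. Bowtie, SAMtools, bedtools and mm9 come from the submitters' processing notes. The sources used here give no versions, thresholds, control tracks or depth, and a deeper library yields more calls. Over the genome MACS2 covered 67.3 and 69.8 Mb in controls 1 and 2, and 82.0 and 64.4 Mb in mutants 1 and 2. With hiddenDomains these totals were 53.4, 54.3, 50.9 and 44.6 Mb in the same order. Mutant 1 thus had the most MACS2 sequence genome-wide, and mutant 2 the least with either caller. Touching calls were joined and covered base pairs summed within each interval (Python 3.11.15). Genotypes were compared per interval by two-sided exact permutation. The 5 intervals were fitted beside 30-kb tiles of the autosomes and X that do not overlap them, with limma 3.58.1 (R 4.3.3, empirical Bayes with trend) on log2(kb + 1), where the mean was at least 1 kb, with Benjamini-Hochberg adjustment at 0.05. Log2 differences understate changes of sparsely covered features. Scripts were tested on simulated data. All 5 members are named. Members, intervals and tests were chosen with earlier results of these data known. Calls give no level of the mark, and p-values measure only the spread between these libraries, which may be technical. Other pluripotency genes were not placed, since no mm9 annotation was used.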

Additional observations from a re-analysis of the deposited data

How the results depend on the processing

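Depth is unknown, and no alternative took an interval past the limma threshold. Nearest to it was Sox2 in bins at equal library totals (limma adjusted p = 0.055), with a log2 difference of 0.303 against 0.133 in the main fit. Scaling multiplies the covered length by 1 factor per library, without a limit at the interval length. Calls covered between 81.7 and 97.1% of the Sox2 interval, so its scaled values, with either caller, are not a sound correction. After Sox2 came Nanog in bins without a minimum covered length (limma adjusted p = 0.0564). Signs turned with library totals scaled to be equal at Sox2 (MACS2 difference -0.174 kb, log2 difference -0.012) and Klf4 (-0.0709 kb, log2 difference -0.050), at Klf4 with a pseudocount of 0.2 kb (log2 difference -0.0031), and at Klf4 with only bases of both callers, added after seeing the data (-0.817 kb). The cause was not tested. Equal totals moved the median log2 difference of all features from -0.12 to 0.01 with hiddenDomains, and the features at an unadjusted limma p under 0.05 from 385 higher and 2906 lower to 1147 and 1503. The count of features called by limma, 0 with both callers, became 403 with hiddenDomains and 340 with MACS2 at equal totals. With hiddenDomains it became 131 with 10-kb tiles and 1101 without a minimum covered length, where more features were tested. Mutant-only regions numbered 0 with hiddenDomains bins. Moving the interval ends left Sall4 unchanged. Widening by 10 kb on each side moved the MACS2 differences to 3.70 kb at Sox2, -3.10 kb at Nanog, -0.947 kb at Pou5f1 and 0.227 kb at Klf4, and calls at full length gave 3.83 kb at Sox2. Narrowing by 5 kb gave 0 kb at Sox2 and -0.519 kb at Nanog with MACS2, where the genotypes overlapped. In bins it gave 0.6 and -0.6 kb, where they did not overlap.

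Leaving out 1 library at a time gave MACS2 differences between -0.772 and 3.81 kb at Sox2, -0.883 and 0.381 kb at Pou5f1, and -0.408 and 0.524 kb at Klf4. The log2 differences there lay between -0.033 and 0.17, -0.48 and 0.17, and -0.26 and 0.28. The signs turned without control 1 (Sox2, and Klf4 with log2 difference -0.048), without mutant 1 (Klf4) and without mutant 2 (Pou5f1). Nanog stayed between -2.35 and -1.38 kb and Sall4 between 3.69 and 4.48 kb with MACS2, and between -1.50 and -1.30 kb and 1.80 and 4.60 kb with hiddenDomains. Control-only and mutant-only regions each numbered between 1 and 3. Control-only regions were 3 without control 1 and 2 without mutant 2, and mutant-only regions were 3 without mutant 2. Nothing in the labels pairs libraries of the same number, whose deviations correlated at 0.03 with MACS2 and 0.05 with hiddenDomains. With a replicate block limma called 0 features with either caller, and the mean paired difference equals the unpaired one (4.08 kb at Sall4 and -1.86 kb at Nanog with MACS2).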

Other observations

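Outside the intervals, the surroundings of the 5 genes also differed in coverage. In the 100 kb on both sides of the Sox2 interval, MACS2 covered 4.41 and 5.67% of the bases in controls 1 and 2 against 6.09 and 5.10% in mutants 1 and 2. These flanks were covered far less than the Sox2 interval itself, at 92.8% on average over the 4 libraries. Around Klf4 MACS2 covered 2.18 and 3.02% of the flanks in controls 1 and 2, and 2.06 and 1.67% in mutants 1 and 2. Both mutants were below both controls there, but with hiddenDomains the groups overlapped. Around Nanog the flanks were covered to 13.2 and 13.3% in controls 1 and 2, and to 10.97 and 10.7% in mutants 1 and 2, with both mutants below both controls, as inside the interval. With hiddenDomains these flanks of Nanog measured 12.1 and 11.9% against 9.3 and 9.9%. Around Sall4 MACS2 covered 10.6 and 10.8% of the flanks in controls 1 and 2 and 9.64 and 8.94% in mutants 1 and 2, which is the opposite order to that inside the Sall4 interval. With hiddenDomains the flanks of Sall4 measured 7.8% in each control against 7 and 6.5% in the mutants. All of this coverage lay to the right of Sall4, as no library had a call within 100 kb to its left. Around Pou5f1 the controls had 11.5 and 17.9% and the mutants 9.51 and 13.3% with MACS2, and the groups overlapped. The flanks were described after the intervals had been seen, and their differences were not tested.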
